A study of Mus musculus with 3 samples.

Results

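Domains of trimethylated histone H3 lysine 4 (H3K4me3) that were marked before the hCG injection and at neither later time were examined in mouse granulosa cells. The peaks called at 0 h, 4 h and 12 h after hCG were pooled over the autosomes and chromosome X, and peaks within 1 kb of each other were merged into domains. Of 14778 domains in all, 649 held a 0 h peak and no 4 h or 12 h peak, which is 4.39% (95% interval 4.07 to 4.73). The same rule gave 1112 domains marked only at 4 h (7.52%) and 554 marked only at 12 h (3.75%), while 10822 (73.2%) were marked at all 3 times. The members were selected on the presence of called peaks at the 3 times, so these counts are a description of the lists.

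The cells came from wild type C57BL/6 females at postnatal day 21 to 28, all given 4 IU of eCG, a gonadotropin that drives follicle growth. The 0 h ovaries were taken before hCG, and the others 4 h or 12 h after 5 IU of hCG, which acts through the luteinizing hormone (LH) receptor to trigger ovulation and luteinization. Granulosa cells, the somatic cells that surround the oocyte and make estradiol, were released by puncturing the follicles. There was 1 library per time, so no difference between times has a replicate check and no test was run. How many mice were pooled is not known from the labels.

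H3K4me3 is laid down on nucleosomes at gene starts by the SET1 and MLL methyltransferase complexes and is removed by KDM5 demethylases. It is broad and strong at starts of active genes, most of which lie in stretches rich in the dinucleotide CG, and weaker at some enhancers and at starts of genes that are silent but poised. The first hours after the LH surge are known for a rapid change of program in granulosa cells, from follicle growth and estradiol synthesis towards ovulation and luteinization.

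Peak lists record where enrichment passed the authors' threshold and not how high it was. A domain marked only at 0 h therefore means that no peak was called at 4 h or 12 h, which can come with a weaker mark below the threshold as well as with no mark. In a bulk preparation, fewer cells carrying the mark and less mark per cell cannot be told apart. Sequencing depth is unknown. The lists held 22208, 23619 and 20644 peaks at 0 h, 4 h and 12 h, covering 8.87, 10.1 and 8.92 Mb. The 12 h library ran in another lane (lane 5 against lane 4), and its peak names lack a tag that those of the other lists carry; the part of either in the results was not tested. Intervals are exact binomial (Clopper-Pearson) 95% intervals, or exact order-statistic intervals for medians, and cover counting error only.

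The labelled cell type was checked on marker genes with a peak within 1 kb of a start. Of 10 granulosa markers, 6, 6 and 5 had one at 0 h, 4 h and 12 h, among them Fshr, Cyp19a1 and Esr2 at every time. The granulosa markers Foxl2, Amh, Inhba and Nr5a2 had none at any time. The other cell types were read over their whole lists. Of 10 theca and stroma genes 2, Aldh1a1 and Gli1, had a peak at all 3 times, while the defining theca genes Cyp17a1 and Insl3 had none. None of 15 leukocyte genes had one at any time. Of 20 oocyte genes there were 2 at each time, with Gdf9 alone at all 3. The 12 endothelial genes had 1, 2 and 1, the 8 smooth muscle genes 0, 2 and 0, and the 9 surface epithelium genes 2, 2 and 1. The domains at Sox18 and at the surface epithelium marker Krt18 belonged to the class marked only at 0 h; the part of other cell types in the results was not tested.

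The class reached gene starts of very different base composition. The 4 starts below were taken from the named genes to show that span, each with the 300 bases from 250 before to 50 after its RefSeq start (GRCm38.p6, the assembly behind mm10), 5′ to 3′ on the gene's strand, with CG dinucleotides in capitals. They run from 6 CG at Adgrg1, an adhesion G protein-coupled receptor that binds collagen, through 17 at Tafa4, a secreted chemokine-like protein, and 20 at Atoh1, a proneural transcription factor, to 36 at Srebf1, a transcription factor of lipid synthesis genes. The windows are chr8:94984149-94984448 (plus strand), chr6:97060362-97060661 (minus), chr6:64728875-64729174 (plus) and chr11:60210422-60210721 (minus).
Adgrg1: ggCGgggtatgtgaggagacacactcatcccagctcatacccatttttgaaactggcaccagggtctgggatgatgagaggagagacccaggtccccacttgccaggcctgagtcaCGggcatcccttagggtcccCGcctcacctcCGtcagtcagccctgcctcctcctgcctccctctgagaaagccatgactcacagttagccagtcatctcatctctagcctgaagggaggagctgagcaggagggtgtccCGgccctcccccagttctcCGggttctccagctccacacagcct
Tafa4: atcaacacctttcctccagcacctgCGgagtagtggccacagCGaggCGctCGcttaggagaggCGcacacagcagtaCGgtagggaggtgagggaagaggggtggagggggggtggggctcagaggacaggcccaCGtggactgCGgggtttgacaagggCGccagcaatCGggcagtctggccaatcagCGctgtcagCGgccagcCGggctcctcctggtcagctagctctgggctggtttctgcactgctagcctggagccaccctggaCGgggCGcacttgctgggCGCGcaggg
Atoh1: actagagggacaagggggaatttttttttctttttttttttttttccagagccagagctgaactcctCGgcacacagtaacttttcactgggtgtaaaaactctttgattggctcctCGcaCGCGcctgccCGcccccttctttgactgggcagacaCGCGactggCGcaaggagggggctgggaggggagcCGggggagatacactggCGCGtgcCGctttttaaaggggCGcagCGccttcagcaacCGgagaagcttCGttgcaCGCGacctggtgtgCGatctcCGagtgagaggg
Srebf1: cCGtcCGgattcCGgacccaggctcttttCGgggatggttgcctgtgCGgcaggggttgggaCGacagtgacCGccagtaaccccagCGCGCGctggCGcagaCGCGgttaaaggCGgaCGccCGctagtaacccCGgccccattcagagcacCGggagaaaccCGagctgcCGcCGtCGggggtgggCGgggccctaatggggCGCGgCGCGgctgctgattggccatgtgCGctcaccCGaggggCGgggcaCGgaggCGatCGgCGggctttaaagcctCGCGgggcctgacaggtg

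The domain at Tafa4 (chr6:97059659-97060418, 639 bp under 0 h peaks) covered the last 57 bases printed. The other 3 domains lay beside the printed window: 133 bp downstream of the start at Adgrg1 (chr8:94984532-94985393, 628 bp), 66 bp downstream at Srebf1 (chr11:60209789-60210405, 617 bp) and 444 bp upstream at Atoh1 (chr6:64727996-64728681, 536 bp). All 4 had 0 bp under 4 h or 12 h peaks within 5 kb of that start. CG-poor and CG-rich starts thus both occurred, at domains of similar covered length.

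The domains were narrow. Their median width was 179 bp (171 to 186), with quartiles of 143 and 259 bp and a range of 136 to 2022 bp. The narrowest peak in the 0 h list was 136 bp, and 188 of the 649 domains (29.0%) lay within 10 bp of that floor. A single peak made up 593 of them (91.4%), 47 held 2 peaks and 9 held 3 or more. Together they covered 147 kb, or 1.66% of the length under 0 h peaks. Widths above 500 bp were reached by 51 domains (7.86%) and above 1000 bp by 11.

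Domains seen only at another time had similar widths. Those marked only at 4 h also had a median of 179 bp (175 to 187), and those marked only at 12 h, whose floor was 152 bp, had 201 bp (194 to 208). The shares within 10 bp of the floor were 28.7% and 27.6%. Domains marked at all 3 times had a median of 1236 bp (1224 to 1252), and those shared by 0 h and 4 h had 481 bp (464 to 505). The class was thus at the narrow end of the lists, as were the other domains called at a single time.

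**Figure D1:**
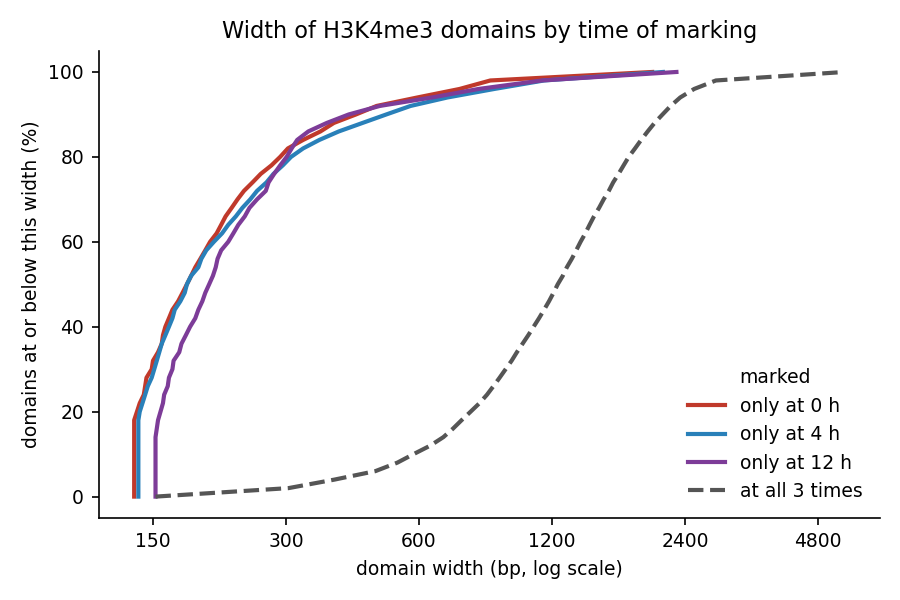
Cumulative share of domains (%) against domain width (bp, log scale) for domains marked only at 0 h, only at 4 h, only at 12 h (solid lines) and at all 3 times (dashed). The single-time curves lie close together with medians of 179, 179 and 201 bp, left of the curve for all 3 times with its median of 1236 bp.

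Distance to the nearest later peak shows how isolated the domains were. The median gap from a 0 h-only domain to the nearest 4 h or 12 h peak was 25.4 kb (quartiles 9.35 and 75.9), and 169 domains (26.0%, 22.7 to 29.6) lay within 10 kb of one. The corresponding medians, to a peak of another time, were 40.9 kb for domains only at 4 h and 30.6 kb for those only at 12 h. Within 2 kb of a later peak there were 35 domains (5.39%). At the edge of the rule, the 3 members nearest to a later peak had gaps of 1043, 1050 and 1058 bp. The first (390 bp under 0 h peaks) was intergenic, 85770 bp from the nearest start, that of Arf6. The others lay 744 bp from a start of Osbp (136 bp) and 502 bp from a start of Wnk1 (373 bp). Just outside it, with the largest gaps under 1 kb between 0 h and later peaks, were domains at Inhbb (423 bp at 0 h, 0 bp at 4 h and 549 bp at 12 h, gap 982 bp) and Zeb2 (171, 593 and 171 bp, gap 955 bp). Among the 11824 domains that joined 0 h and later peaks, 286 (2.42%) had no overlap between them. Had peaks been merged only on overlap, 2833 domains would have been 0 h-only. With the 12 h library as the single later time there were 1429, and with the 4 h library 909.

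The domains were spread over all chromosomes used. They made up 5.20% (4.82 to 5.61) of the 12473 domains with a 0 h peak, and between 3.63% (chromosome 5, 28 domains) and 6.90% (chromosome 14, 31 domains) of such domains per chromosome, with overlapping intervals of 2.43 to 5.21 and 4.74 to 9.66. Chromosome X held 23 (5.34%). Few lay close together: 29 neighbouring pairs, with 55 domains (8.47%), were within 50 kb of each other, and 6 pairs within 10 kb.

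Most of the class lay away from gene starts. Of the 649 domains, 159 (24.5%) were within 1 kb of a known RefSeq start of a protein-coding gene and 41 (6.32%) within 1 kb of either end of a gene whose strand the tables used do not give. Together these are 200 domains or 30.8% (27.3 to 34.5). A further 174 (26.8%, 23.4 to 30.4) lay elsewhere inside a gene and 275 (42.4%, 38.5 to 46.3) between genes. Of the intergenic ones, 30 (10.9%) were within 1 kb of a start of a noncoding gene. Median widths were 212 bp at known starts, 172 bp inside genes and 173 bp between genes.

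The other single-time classes had similar locations. Gene starts took 31.1% (28.4 to 33.9) of domains marked only at 4 h and 36.1% (32.1 to 40.3) of those marked only at 12 h, and intergenic positions 40.0% and 34.8%. Domains marked at all 3 times were at gene starts in 84.8% (84.1 to 85.4) and between genes in 8.69%. Domains shared by 0 h and 4 h fell between, with 49.1% at starts. The share of 0 h-only domains at starts depended on the merging, reaching 55.1% when peaks were merged only on overlap.

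**Figure D2:**
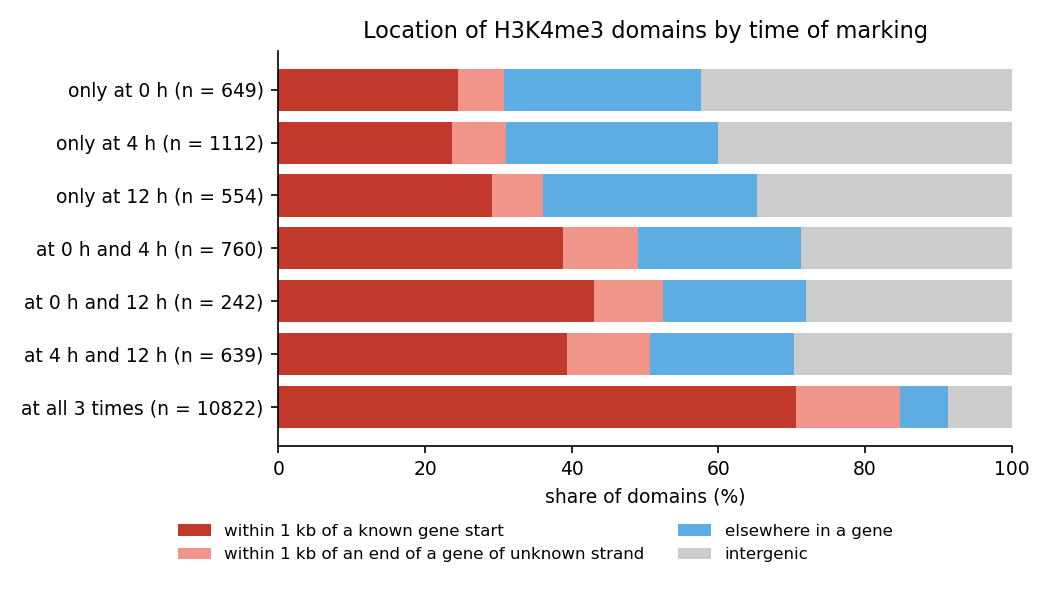
Share of domains (%) within 1 kb of a known gene start, within 1 kb of an end of a gene of unknown strand, elsewhere in a gene, or intergenic, for each pattern of marking (n in brackets). The 3 single-time classes have 30.8%, 31.1% and 36.1% at starts or ends, against 84.8% for domains marked at all 3 times.

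Where a domain lay beside a start of known strand, it was mostly on the gene body side. Counted were 171 RefSeq starts, of 154 genes, with a 0 h-only domain and no domain of another class within 1 kb. Starts of the same gene can share a domain, and the intervals treat starts as independent. The other classes were counted alike. The domain was downstream at 121 starts (70.8%, 63.3 to 77.5), at a median of 214 bp, upstream at 32 (18.7%) and across the start at 18 (10.5%, 6.36 to 16.1). Downstream shares were 68.7% and 71.3% for domains marked only at 4 h and only at 12 h. Domains marked at all 3 times covered the start in 55.4% of 9819 cases and lay downstream in 41.3%. They are wider, so more of them can reach the start, and no comparison at equal width was made.

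**Figure D3:**
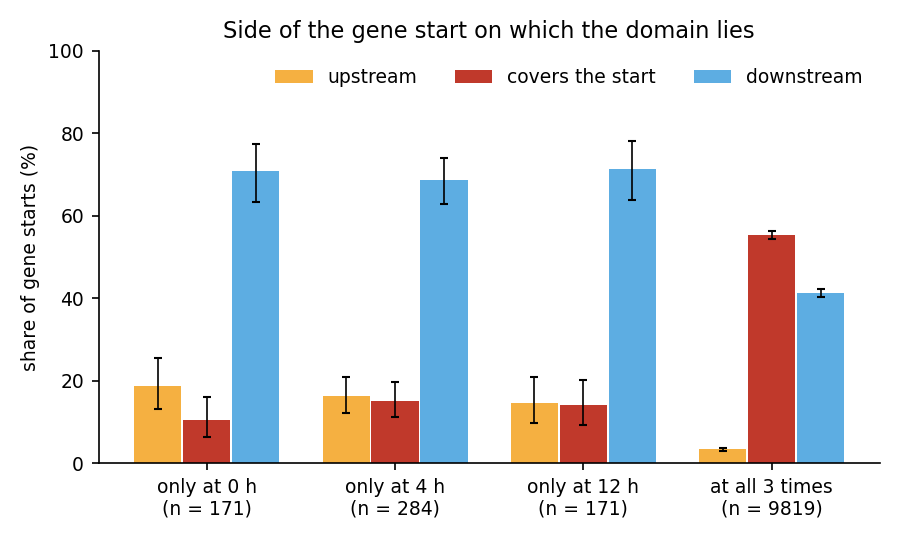
Share of RefSeq starts (%) whose domain lies upstream, across or downstream of the start, by class of domain; error bars are 95% Clopper-Pearson intervals. The 0 h-only class has 70.8% downstream, and the class marked at all 3 times has 55.4% across the start.

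The base composition of these starts stood between that of constantly marked and unmarked starts. Over the 300-base windows the median G+C content was 59.3%, with a median of 16.0 CG and a CpG observed over expected ratio of 0.611. A ratio of at least 0.6, a usual mark of a CpG island, was reached at 90 of 171 starts (52.6%, 44.9 to 60.3). The share was 57.7% and 56.7% for the other single-time classes, 81.4% (80.6 to 82.2) at starts marked at all 3 times and 13.1% (12.5 to 13.8) at starts with no domain. Starts of members with up to 200 bp under 0 h peaks reached it in 51.9% of 79, and those of members with more in 53.3% of 92.

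**Figure D4:**
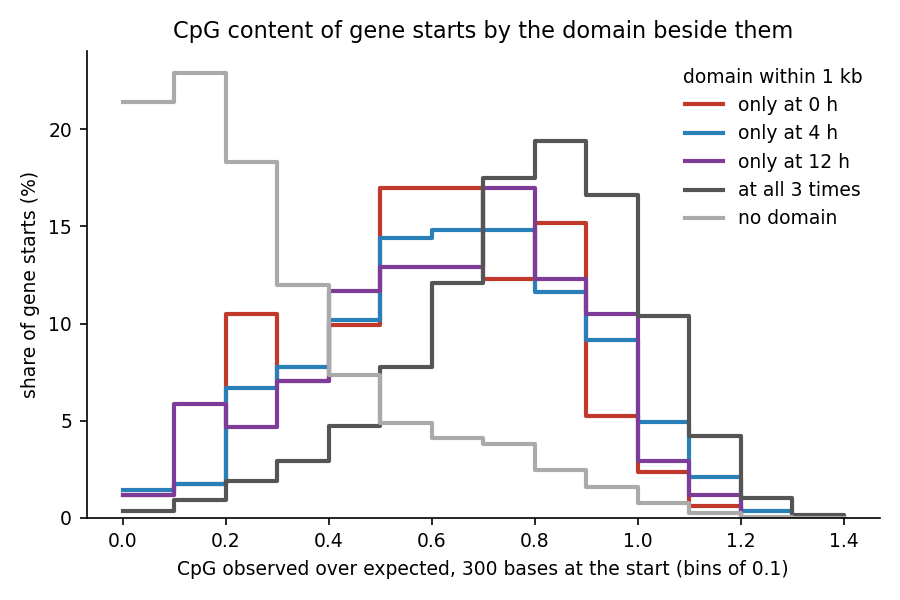
Share of gene starts (%) by CpG observed over expected ratio of the 300 bases at the start (bins of 0.1), by the class of domain within 1 kb. The 0 h-only starts have a median of 0.611, between 0.226 for starts with no domain and 0.809 for starts marked at all 3 times.

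Motifs were searched as plain letters on both strands of the same windows, counted separately although they can overlap. The GC box GGGCGG was present at 55.6% (47.8 to 63.1) of the 171 starts with a 0 h-only domain and at 46.7% of all 21044 starts, below the 69.7% (68.8 to 70.6) at starts marked at all 3 times. The starts of domains marked only at 4 h and only at 12 h had it in 62.0% and 62.6%, with overlapping intervals. The TATA box TATAAA was present at 5.85% (2.84 to 10.5), against 12.7% of all starts and 5.59% of those marked at all 3 times. It was present at 8.80% and 7.60% for only 4 h and only 12 h, with overlapping intervals, and at 20.5% of starts with no domain. For CCAAT the shares were 38.0% against 38.5% of all starts, for the nuclear receptor site AGGTCA 14.6% against 14.6%, for the FOX site TAAACA 8.19% against 11.5%, for the AP-1 site TGANTCA 7.02% against 7.04% and for the cyclic AMP response element TGACGTCA 2.34% against 2.26%. For the last 5 motifs the interval of the members held the share of all starts; for the GC box and the TATA box it did not.

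In all, 206 of 21627 protein-coding genes (0.953%) had a 0 h-only domain within 1 kb of a start, and 504 (2.33%) had one inside the gene or within 5 kb. At 154 of the 206 genes (74.8%) no 4 h or 12 h peak lay within 5 kb of that start, and at 52 (25.2%) one did. A domain with a later peak stood at a start of 28 of these genes, and 110 (53.4%) had no such domain in the gene or within 5 kb. The number of genes rose to 347 with merging at 500 bp and to 1577 with merging on overlap alone.

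Among the domains at gene starts with most covered bases, Rab33a, a small GTPase of the Rab family, had 756 bp under 3 peaks at 0 h (chrX:48519749-48521276), 464 bp downstream of its start. Tmsb15b2, of the actin-binding thymosin beta family, had 649 bp and Hspa1b, an inducible heat shock protein, had 629 bp (chr17:34959456-34960318). Kif26a, a member of the kinesin family, had 624 bp (chr12:112146915-112147768). All had 0 bp at 4 h and 12 h within 5 kb of the start, although the nearest later peak was 6372 bp away at Rab33a and 7015 bp at Hspa1b, closer than the median gap of the class. Tmsb15b2 and Hspa1b have near-identical copies in the genome, so their read assignment is uncertain. Further cases by covered bases, picked after their values were seen, were Myb, a transcription factor of proliferating progenitors, with 587 bp (chr10:21159144-21160373) and Ctnna2, a neuronal catenin, with 531 bp. Neither had a later peak within 5 kb.

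Away from starts, the member with the most covered bases lay inside Dnajb13, which encodes a DnaJ family protein of motile cilia and sperm, 3112 bp from its start (chr7:100509682-100511703, 1313 bp under 3 peaks). Map3k7, the kinase TAK1 of the TGF-beta and cytokine pathways, had 1025 bp in the gene body (chr4:32006861-32008123), 42.8 kb from a start that was marked at all 3 times with 920, 1225 and 1016 bp. Lonrf1 and Zmiz1, a transcriptional coactivator, had the same arrangement: 900 bp (chr8:36223957-36225701) and 888 bp (chr14:25586544-25587619) in the gene. The domain at an end of Lonrf1, whose strand the tables used do not give, covered 1320, 1404 and 1526 bp, and that at the start of Zmiz1 942, 1716 and 1565 bp. In these 3 genes an end or start kept peaks at each time while the internal domain had none later. The domain in Zmiz1 lay within 1 kb of the noncoding gene 4931406H21Rik, and the 952 bp domain beyond 6820408C15Rik (chr2:152447918-152448869) within 1 kb of the noncoding Gm39960. The remaining domains among the 15 with most covered bases were inside Mro (840 bp), near Wdr7 (653 bp) and near Nsd1, a histone H3 lysine 36 methyltransferase (629 bp).

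Adgrg1 held 2 members and no other domain. The second, with 844 bp under 3 peaks (chr8:94995778-94997030), lay 11.4 kb downstream of the start. The gene therefore had 1472 bp under peaks at 0 h and none at 4 h or 12 h. Myo18a, Greb1l, Fmn1, Tmc1 and Tex14 also had 2 members each, with 434, 469, 344, 289 and 288 bp in all. All but Tmc1 also held domains of other classes, and each single member of these 5 genes had under 300 bp covered by peaks.

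Of the 174 members inside genes, 96 (55.2%, 47.5 to 62.7) sat in a gene with a start marked at all 3 times. For 13 (7.47%) the gene had a start marked at some times, and for 65 (37.4%) it had no marked start. The median distance to a known start was 32.3 kb, over 132 members. Among domains marked only at 4 h the share with a constantly marked host start was 51.1%, and among those only at 12 h it was 47.8%.

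Genes of follicle growth and estrogen response were examined from a list of 38, written with earlier results of these data known. Only Esr1 and Cyp19a1 had a 0 h-only domain within 1 kb of a start, or 5.26% of the list, beside 0.953% of all protein-coding genes. Domains marked only at 4 h and only at 12 h each stood at a start of 1 gene of the list, beside 352 and 204 of all 21627 genes. Cyp19a1, the aromatase that makes estradiol, had 137 bp at 0 h and none later beside one start (chr9:54227928-54228064). At another start the gene was marked at all 3 times with 1908, 845 and 382 bp. Esr1, the estrogen receptor alpha, had 191 bp (chr10:4710205-4710395), 47 bp from an internal start. Its domain at the first start covered 856, 513 and 352 bp, and further domains within the gene covered 1494, 788 and 776 bp and, 1.84 kb from the internal start, 366, 532 and 167 bp. With merging at 2 kb the domain at Esr1 joined this last one, which left 1 of the 38 genes, Cyp19a1. The Cyp19a1 domain was in turn near the 136 bp floor. With the narrow peaks left out, or with equal numbers of the widest peaks, Cyp19a1 had no such domain while Esr1 kept one. Over the merge distances and peak filters tried, between 1 and 7 of the 38 genes had such a domain. In both genes the 0 h-only domain was a small addition to domains that stayed marked, which covered fewer bases at 12 h than at 0 h.

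Seen by nearest gene instead, 9 of the 649 members (1.39%, 0.636 to 2.62) belonged to this list, against 0.447% of all 14778 domains. The share was 0.629% (0.253 to 1.29) for domains marked only at 4 h and 0.361% (0.0438 to 1.30) for those marked only at 12 h, with overlapping intervals. Among domains over 1 kb from any protein-coding start, it was 7 of 449 (1.56%, 0.629 to 3.19). The share of all such domains, 0.842%, lies in that interval. The 7 lay at Inhbb, Foxl2, Esr2 and Nr5a2, picked after their values were seen.

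Foxl2, the transcription factor that maintains granulosa identity, had 422 bp under 2 peaks 2071 bp from its start (chr9:98952696-98953536). No peak lay within 1 kb of its start at any time, and a domain past the gene covered 335, 356 and 543 bp. Inhbb, the inhibin and activin beta B subunit, had 258 bp in the gene (chr1:119418549-119418806), next to the start domain named above. Esr2, the main estrogen receptor of granulosa cells, had 150 bp at 7.58 kb (chr12:76184844-76184993) and 328 bp at 19.1 kb from its start (chr12:76196324-76196651). Its start domain covered 2041, 1750 and 1222 bp.

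Nr5a2, a nuclear receptor required for ovulation, was the nearest gene to 3 members. They held 155 bp at 70.8 kb (chr1:137031246-137031400), 173 bp at 218 kb (chr1:137178274-137178446) and 279 bp at 243 kb (chr1:137203682-137204123). At such distances the nearest gene is a position and says nothing of a target. None of the 9 domains exceeded 422 bp under peaks.

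Developmental transcription factors, the longest list, gave the most list members at starts, 6 of 194 (3.09%), beside 0.953% of all protein-coding genes. The list had 10 for domains marked only at 4 h and 1 for those only at 12 h, beside 352 and 204 of all genes. By share, some shorter lists stood higher, such as follicle growth with 5.26%. Atoh1 and its sequence are given above. Sox18, a factor of endothelial and hair follicle development, had 302 bp under 2 peaks (chr2:181670857-181671250), at a gene end of unknown strand. The LIM homeodomain factors Isl2 and Isl1 had 229 bp and 184 bp (chr13:116310104-116310287), and the mesodermal factor Twist1 had 136 bp, which is the floor. At Isl2 a separate domain of 285 bp was called at 4 h. Atoh1, Sox18, Isl1 and Twist1 had no 4 h or 12 h peak within 5 kb of that start or end.

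By nearest gene, 16 members (2.47%, 1.42 to 3.97) belonged to developmental transcription factors, against 0.704% of all domains. Over 1 kb from any protein-coding start it was 10 of 449 (2.23%, 1.07 to 4.06) against 1.66% of all such domains, which lies in that interval. The shares for domains marked only at 4 h and only at 12 h were 2.34% and 1.81%, with overlapping intervals. Isl1 was nearest to 3 members, of which 2 lay 108 kb and 567 kb away. Sox2, Sox11 and Foxa2, picked after their values were seen, each had 1 member of 136 to 202 bp at 14.7 to 280 kb from the start. These were isolated, with gaps to the nearest later peak of 583 to 699 kb.

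Among signalling genes, Nog, a secreted BMP antagonist, had 167 bp, and Sfrp1, a secreted Wnt antagonist, had 188 bp. Both domains lay at an end of a gene whose strand is not given, with no later peak within 5 kb. With such ends counted as starts, these genes were the single members from 2 lists. The lists were TGF-beta and BMP signalling (1 of 42, 2.38%) and Wnt signalling (1 of 48, 2.08%), beside 0.953% of all genes. Angpt2, a ligand of the TIE2 receptor (1 of 42 in the vascular signalling list), had 157 bp at 0 h, 59 bp outside an end of the gene. Its strand is not given, so this end may not be its start. A separate domain within 5 kb held 159 bp at 12 h. Inside the gene, 2.49 kb from its other end, a domain covered 207, 0 and 192 bp at 0 h, 4 h and 12 h. Il11ra1, the receptor chain for interleukin 11, had 251 bp, in a neighbourhood that kept 561 bp at 4 h and 686 bp at 12 h against 927 bp at 0 h. Smad6, an inhibitory SMAD picked after its values were seen, had 158 bp at 2.10 kb from its start, whose domain covered 637, 281 and 202 bp.

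Immediate early genes are induced by growth factors and LH within minutes to hours. Of 39 such genes, 1 (2.56%) had a 0 h-only domain at a start, beside 0.953% of all protein-coding genes. At Egr2 the 0 h domain (290 bp, chr10:67536573-67536862) lay upstream of one start, while a domain at another start had 0 bp at 0 h, 962 bp at 4 h and 371 bp at 12 h. These domains were 1211 bp apart, a little over the 1 kb merge distance. Outside the gene, 9.68 kb from its nearest start, a larger domain was marked at all 3 times with 1280, 1206 and 1307 bp. Peaks thus differed in position before and after hCG inside Egr2 but not at the domain beyond it. Ier2, picked after its values were seen, had 473 bp at 1.44 kb from its start (chr8:84664295-84664923), and its start domain covered 1015, 2175 and 1863 bp.

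Of the ovulatory LH response list, 0 of 41 genes had a 0 h-only domain at a start, a count that the share of 0.953% over all genes does not set apart. The list had 6 genes with a domain marked only at 4 h and 1 with a domain marked only at 12 h. Over all 21627 protein-coding genes these counts were 352 and 204. By nearest gene it took 2 members (0.308%, 0.0373 to 1.11), at Cebpb and Pparg, beside 0.460% of all domains. The shares were 1.26% (0.690 to 2.10) for domains marked only at 4 h and 0.903% for those only at 12 h, with overlapping intervals. Neither member lay within 10 kb of its gene's start.

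Metabolic and structural lists each had 1 gene with a member at a start. The shares ran from 1.72% of the matrix list to 11.1% of the 9 surface epithelium genes, beside 0.953% of all protein-coding genes. Srebf1, the single gene of 32 in the cholesterol list, had its 617 bp domain at an internal start, and a domain 62 bp from another of its starts covered 321, 627 and 333 bp. Adam12, a metalloprotease of the matrix list (1 of 58), had 274 bp at a gene end of unknown strand and no later peak within 5 kb. Krt18, a keratin of simple epithelia, had 140 bp (chr15:102028260-102028399) with none later. Mcm2, a subunit of the replicative helicase (1 of 55 in the cell cycle list), had 262 bp, with 1034, 1057 and 802 bp within 5 kb in all. Chmp2a, an ESCRT-III subunit among 32 housekeeping genes, had 136 bp, with 1027, 965 and 957 bp within 5 kb.

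No gene of the lists for theca and stroma, oocyte, leukocytes, smooth muscle, imprinted genes, neuronal and ion channel genes, or Notch and Hedgehog signalling had a 0 h-only domain within 1 kb of a start. Over all lists, 18 of 857 genes (2.10%) had one, beside 0.953% of all protein-coding genes. The same lists held 37 genes for domains marked only at 4 h and 13 for those only at 12 h, beside 352 and 204 of all genes. The count of 18 became 80 with merging on overlap alone, 31 with merging at 500 bp and 11 with merging at 5 kb.

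**Figure D5:**
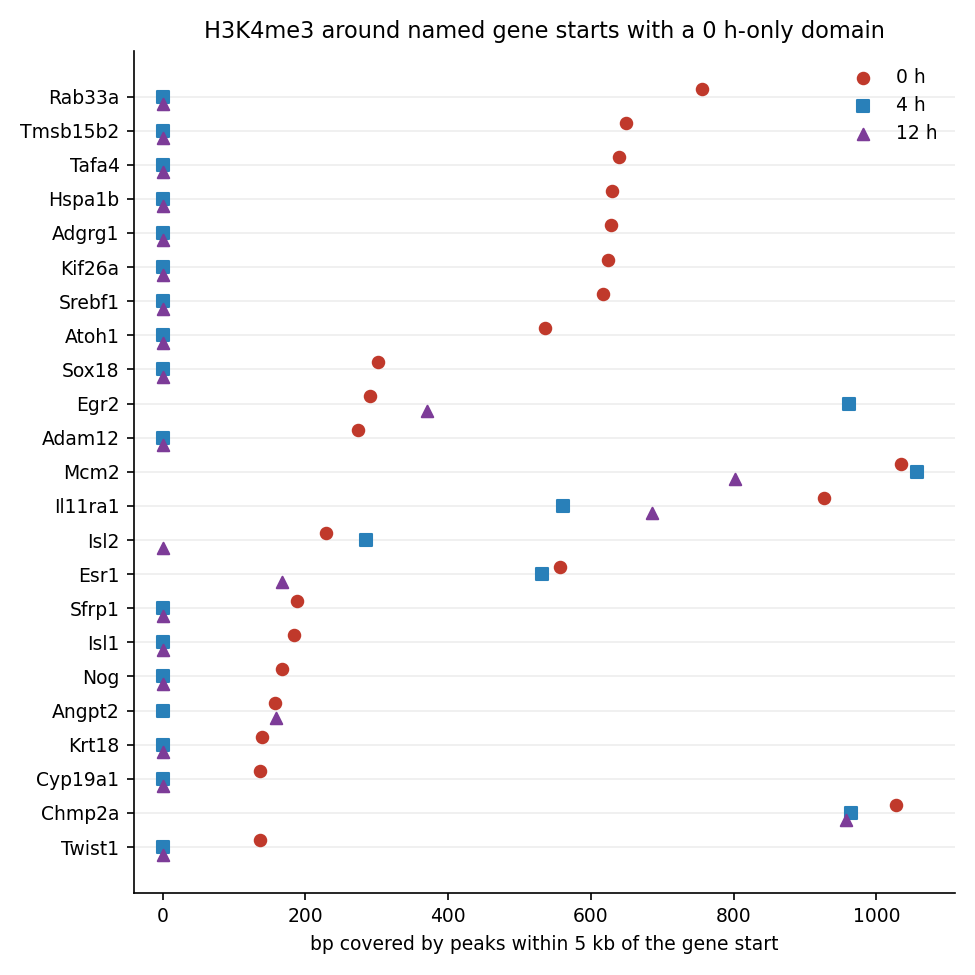
Bases covered by peaks within 5 kb of the gene start (bp) at 0 h (circles), 4 h (squares) and 12 h (triangles) for named genes with a 0 h-only domain at a start. For genes whose strand is not given, the gene end nearest the domain stands in for the start. Most genes have 0 bp at both later times, while Egr2, Mcm2, Il11ra1, Esr1 and Chmp2a have covered bases from other domains at 4 h and 12 h.

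Nearest genes as a whole were scattered. The 649 members had 616 different nearest protein-coding genes, of which 24 were nearest to 2 members and 4 to 3 or more. The median distance to the nearest start was 10.1 kb (quartiles 0.515 and 41.4). Within 10 kb of it lay 323 members (49.8%), and 89 (13.7%) were over 100 kb away.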

How the data were processed

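H3K4me3 ChIP-seq peaks were analysed for 3 libraries, 1 each at 0 h, 4 h and 12 h, amplified for 18 PCR cycles per the labels' protocols. Per the submitters' processing notes the tools were Bowtie2 2.2.3, MACS2 2.0.9 and CASAVA 1.8, with the mm10 build; neither their settings nor a peak threshold is stated. The deposited lists give each peak's position in bp, with no count, score or signal, so depth is unknown.

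Peaks on the autosomes and X within 1 kb were merged into domains (Python 3.11.15, pandas 2.3.3, scipy 1.17.1; bedtools 2.31.1 gave the same 14778 domains). The code was tested on simulated data. Gene positions and 300-base start windows are from RefSeq (GRCm38.p6); where a gene had no start window, either gene end counted as a start. Gene lists (22 lists, 857 of 865 names matched), members and tests were chosen with earlier results of these data known. Named genes were the 15 members with most covered bp, list genes with a member at a start, up to 6 genes with several members, and the 3 domains on each side of the merge limit; others are marked as picked later, and a few that the rule names are not reported here. Alternatives changed the merge distance, the peak filter, the start window and the libraries.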

Additional observations from a re-analysis of the deposited data

Results flagged for a closer look

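Chromosome Y was outside the rule and outside the comparisons above. The lists nevertheless held 28 peaks on it at 0 h, 43 at 4 h and 25 at 12 h, although the labels give female mice. Merged in the same way, the Y peaks formed 31 domains, of which 3 were marked only at 0 h and 11 at all 3 times. What these peaks come from was not tested.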

How the results depend on the processing

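With 1 library per time, no result has a replicate, and the depth of each library is unknown, so a missing peak cannot be separated from a weak one. No paired analysis was possible because each time has 1 library and its replicate number is only a name. Merging peaks on overlap alone gave 2833 domains, 55.1% at starts, 1577 genes and 80 list genes, in place of 649, 30.8%, 206 and 18. By construction each of the 649 was still 0 h-only. Merging at 500 bp gave 38.8%, 347 genes and 31 list genes, and at 5 kb 11 list genes. With each library's narrowest 25% of peaks left out, the median length under 0 h peaks was 263 bp, against 179 bp with all peaks. Of these domains 43.7% lay at starts, and 306 of the 649 remained among 618 domains. With equal numbers of the widest peaks these were 201 bp and 35.0%. The 0 h and 12 h libraries alone gave 1429 domains. Start windows of 500 bp and 2.5 kb gave 24.8% and 35.6%, and all genes of the annotation 41.8%. Counting list genes with a member in the gene or within 5 kb gave 36. The cause of these changes was not tested beyond what the settings themselves fix.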

Other observations

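A pair of 0 h-only domains at Fmn1, the formin gene next to Grem1, lay 431 kb and 224 kb from the start of Grem1 and held 156 and 188 bp under peaks. Grem1, a BMP antagonist made by cumulus cells, was picked after its values were seen; the domain at its start covered 1585, 166 and 0 bp at 0 h, 4 h and 12 h. Whether the distant domains act on it was not tested.

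Some members lay within 5 kb of a microRNA hairpin, among them those given here. Domains of other classes near hairpins were not counted. The hairpins of Mir338 and Mir3065, which overlap on opposite strands, lay 1124 and 1126 bp from a 238 bp member, and that of Mir3083 lay 308 bp from a 149 bp member.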
